A study of Mus musculus with 30 samples.

Results

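The p53 target genes described here are a list of 34 mouse genes held to be targets of the transcription factor p53, and they were taken from the data by gene symbol. All 34 were among the 23284 gene rows of a single deposited table of RNA sequencing values, and all 34 passed the filter on low values (a mean of at least 10), as did 14539 genes in all. The study profiled mouse lung tumours started by K-RAS, the growth-promoting GTPase that is often mutated in lung cancer. According to the labels, mice were untreated, NAC-treated or Vitamin E-treated, NAC being an abbreviation that the labels leave unexplained. There were 5 animals per group and 2 tumours per animal, which gives 30 tumours from 15 animals, and K-RAS-induced tumours are common to all groups.

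The 30 columns of the table carry a letter (C, B or A), a digit for the animal, a digit for the tumour and an index sequence, and 0 of these names or index sequences stood in a label of any sample. The letters are therefore given as letters, with 10 tumours of 5 animals each, and no treatment is attached to any of them. Which letter was untreated, and so which direction any treatment moved a gene, was not analysed here. Strain, age, sex and the allele that carried K-RAS are not given in the sources used here.

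p53 is kept scarce in resting cells because Mdm2 marks it for degradation. Damage and oncogenic signalling release it from this control, and it then binds paired half-sites in DNA and raises genes that stop the cell cycle, start apoptosis, repair DNA, limit oxidative and metabolic stress, or restrain p53 itself. In lung tumours driven by K-RAS, p53 is known as a brake on progression. Many of its targets also answer to other factors, so that their level alone does not measure p53 activity.

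Promoter windows for 27 of the 34 genes were found in RefSeq (build GRCm38.p6; the submitters' processing notes name mm9 for the study). Each window ran from 250 bases before a transcript start to 50 bases after it. The p53 half-site consensus is a 10-base motif that is its own reverse complement. It stood in at least 1 window of 11 of these 27 genes (40.7%) and of 9.55% of the 27025 genes with a window. Some genes have more than 1 window. Counted by window, 28.6% of the 42 windows of these genes held it, beside 8.36% of all 32851 windows. The following stretches, all upstream of the start, show half-sites of 5 target genes that differ in how they varied between the letters. The Cdkn1a stretch holds 2 half-sites and each of the others holds 1. The matches were sought after expression values had been seen, capitals mark the half-sites, and a match is a description of the letters and not of binding.
Cdkn1a (chr17:29090876-29090967, plus strand): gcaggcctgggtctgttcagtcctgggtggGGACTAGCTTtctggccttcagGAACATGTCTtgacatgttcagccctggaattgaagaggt
Ccng1 (chr11:40755432-40755501, minus strand): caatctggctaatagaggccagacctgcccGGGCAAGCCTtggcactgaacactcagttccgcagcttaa
Mdm2 (chr10:117710905-117710974, minus strand): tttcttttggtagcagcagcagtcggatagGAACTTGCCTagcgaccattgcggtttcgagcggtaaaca
Sesn1 (chr10:41887236-41887305, plus strand): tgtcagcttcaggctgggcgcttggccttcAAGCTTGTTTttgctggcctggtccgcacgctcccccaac
Pml (chr9:58249891-58249960, minus strand): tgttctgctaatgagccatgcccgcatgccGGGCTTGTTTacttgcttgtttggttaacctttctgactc

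Of these 5 genes, Cdkn1a and Ccng1 were higher in C than in A, Sesn1 and Pml were lower, and Mdm2 passed the test in neither direction. A half-site was found in 4 of the 6 genes with a window that were higher in C than in A, in 2 of the 5 that were lower, and in 5 of the 16 that were not called.

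The values were gene counts divided by a size factor for each tumour, called normalised read counts below. Recovering the whole reads gave 18322631 to 24408946 reads in genes per tumour. The values are not divided by transcript length, so levels are compared between tumours and not between genes. In whole tumours, fewer cells of a type and less RNA per cell cannot be told apart. Surfactant and epithelial genes, markers of lung, were detected in every tumour (Sftpc, 810581 to 1940020 over all 30). The tumours also held other cell types. Heart muscle genes stood out in tumour A11 (Myh6 24675 and Actc1 15068) and, for Actc1, in tumour C21 (2974). Both club cell genes tested lower in C than in A, with a summed Scgb1a1 and Scgb3a2 value of 560161 to 1337090 in C, 574023 to 2452330 in B and 1042320 to 3284730 in A. Of 5 alveolar type 2 genes, 3 tested higher in C than in A, and their sum was 2280610 to 2759810 in C, 1647410 to 2784260 in B and 1198210 to 2316480 in A. The endothelial genes Pecam1, Cdh5 and Kdr summed to 6320 to 11558 in C, 7943 to 14966 in B and 8041 to 15929 in A. The macrophage gene Cd68 was 826 to 2073 in C, 486 to 1327 in B and 390 to 827 in A. The part of these differences in the results below was not tested.

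The 3 pairs of letters were compared with limma on log2(value + 1), after averaging the 2 tumours of an animal, with 5 animals per letter and Benjamini-Hochberg adjustment over all 14539 genes. A gene was called at an adjusted p under 0.05. Between C and A, 15 of the 34 p53 target genes were called (44.1%), which is close to the 44.8% of all genes called. Of the 34, 8 were higher in C (23.5%, against 21.9% of all genes) and 7 were lower in C (20.6%, against 22.9% of all genes). The median log2 fold change of the 34 was -0.01, beside -0.0014 for all genes tested. The tumours of C and A did not overlap at all in 6 of the 34 genes (17.6%), against 9.29% of all genes.

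Cdkn1a, which encodes the cell cycle inhibitor p21, had the lowest adjusted p of the 34 between C and A. Its normalised read count was 4676 to 5281 in the 10 tumours of C (median 5123), 2497 to 3977 in B (median 3515) and 1952 to 3393 in A (median 2562). Every tumour of C lay above every tumour of B and of A, while B and A overlapped. The fold change was 1.95 for C over A (log2 0.97, SE 0.10, limma adjusted p = 4.17e-05), 1.498 for C over B (log2 0.58, SE 0.10, adjusted p = 0.00234) and 1.305 for B over A (log2 0.38, SE 0.10, adjusted p = 0.0262).

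**Figure D1:**
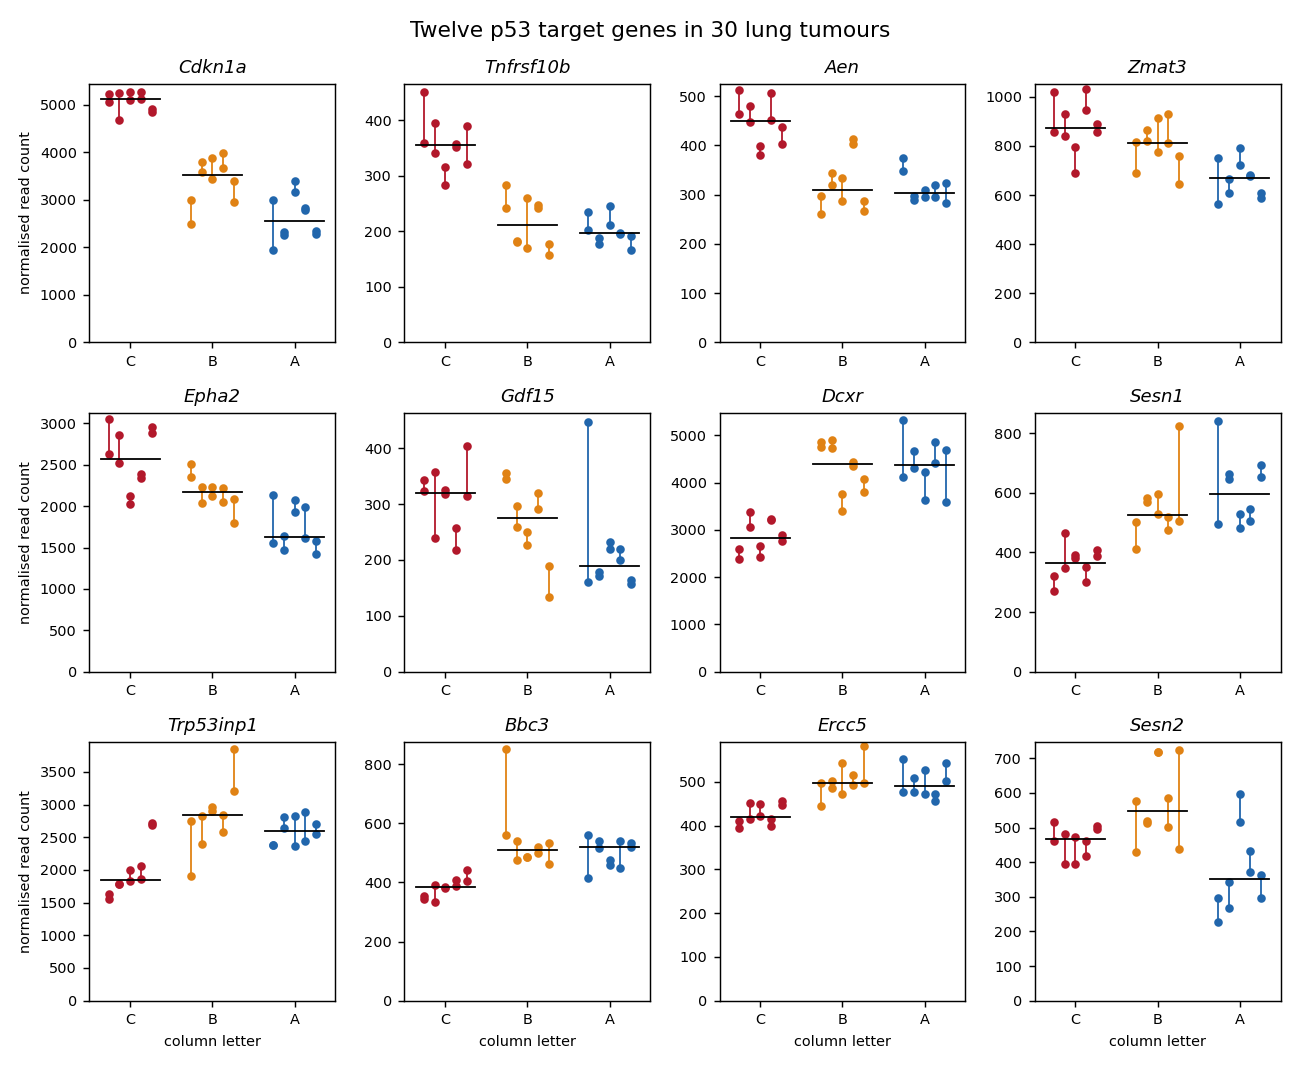
Normalised read count (vertical axis, linear, from 0) of 12 p53 target genes in each of 30 tumours, by column letter. Points joined by a line are the 2 tumours of 1 animal and the black bar is the median of 10 tumours; Cdkn1a in C (4676 to 5281) lies wholly above B and A, and Dcxr in C (2382 to 3378) wholly below. The genes were chosen after their values were seen.

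The death pathway genes Tnfrsf10b and Aen were higher in C, as Cdkn1a was, and Bbc3 was lower. Tnfrsf10b, the mouse death receptor for TRAIL, had 283 to 451 normalised reads in C (median 355), 157 to 284 in B (median 212) and 167 to 245 in A (median 196). All tumours of C were above all of A, and B overlapped both. The log2 fold change was 0.82 (SE 0.12, limma adjusted p = 0.000252) for C over A and 0.75 (SE 0.12, adjusted p = 0.00159) for C over B. Aen, a nuclease that degrades DNA during apoptosis, had 380 to 513 in C (median 449), 260.1 to 412 in B (median 309) and 283 to 374 in A (median 303). C was wholly above A, and both tumours of animal B4 reached into the range of C. Its log2 fold change was 0.51 for C over A (adjusted p = 0.00137) and 0.49 for C over B (adjusted p = 0.00619).

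Bbc3, which encodes the apoptosis inducer PUMA, was lower in C. It had 334 to 442 normalised reads in C (median 386), 462 to 850 in B (median 509) and 416 to 562 in A (median 519). C was wholly below B, and overlapped A through tumour A11. The log2 fold change was -0.38 (SE 0.09, limma adjusted p = 0.00319) for C over A and -0.48 (SE 0.09, adjusted p = 0.00335) for C over B. Bax, Apaf1, Fas, Perp, Pmaip1 and Eda2r, which also have roles in cell death, passed the test in none of the 3 comparisons. Pmaip1, which encodes NOXA, had medians of 203.0 in C, 203 in B and 283 in A, with a log2 fold change of -0.48 for C over A (SE 0.22, adjusted p = 0.0821).

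Sesn1 and Sesn2 encode sestrins, which restrain the growth kinase mTORC1 under stress, and they were called in different comparisons. Sesn1 had 271 to 465 normalised reads in C (median 366), 413 to 824 in B (median 525) and 483 to 841 in A (median 596). All of C lay below all of A, and the highest tumours in B and A were B50 and A11. The log2 fold change was -0.73 (SE 0.12, limma adjusted p = 0.000353) for C over A and -0.60 (SE 0.12, adjusted p = 0.00404) for C over B. Sesn2 had 394 to 516 in C (median 467), 429 to 723 in B (median 548) and 228 to 596 in A (median 352). Its log2 fold change was 0.66 for B over A (SE 0.16, adjusted p = 0.0207) and 0.36 for C over A, which did not pass (SE 0.16, adjusted p = 0.0755).

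Dcxr, a reductase of sugars and dicarbonyls, was among the clearest genes lower in C. It had 2382 to 3378 normalised reads in C (median 2826), 3400.3 to 4906 in B (median 4397) and 3594 to 5333 in A (median 4365). C was below every tumour of both other letters, and its fold change was 0.651 of A (log2 -0.62, SE 0.10, limma adjusted p = 0.000312) and 0.663 of B (log2 -0.59, SE 0.10, adjusted p = 0.00147). Ercc5, the repair endonuclease XPG, differed less in size, with 395 to 455 in C, 445 to 582 in B and 456 to 552 in A, and no tumour of C reached into A. Its log2 fold change was -0.23 for C over A (SE 0.05, adjusted p = 0.00355) and -0.24 for C over B (SE 0.05, adjusted p = 0.00872). Trp53inp1, a cofactor of p53 in stress responses, had 1554 to 2716 in C, 1909 to 3846 in B and 2360.2 to 2883 in A, with log2 fold changes of -0.40 for C over A (adjusted p = 0.0156) and -0.51 for C over B (adjusted p = 0.0132). Both tumours of animal C5 lay inside the range of A, and the other tumours of C lay below it. With only the first tumour of each animal, Trp53inp1 passed in neither comparison (log2 -0.42, limma adjusted p = 0.0537 for C over A, and log2 -0.46, adjusted p = 0.0848 for C over B). With only the second tumour, it passed in both.

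Further genes were called between C and A. Epha2, a receptor tyrosine kinase, had 2021 to 3049 normalised reads in C, 1794 to 2510 in B and 1421 to 2138 in A (log2 0.57 for C over A, limma adjusted p = 0.000608). Zmat3, an RNA-binding zinc finger protein, had medians of 874 in C, 813 in B and 670 in A (log2 0.41 for C over A, adjusted p = 0.00156). Ei24, a protein of the endoplasmic reticulum, differed by a log2 of 0.19 between C and A (adjusted p = 0.00272) over a narrow spread, with 2871 to 3433 in C and 2404 to 2960.0 in A.

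Ccng1 (cyclin G1) and Gdf15 (a secreted stress cytokine) were higher in C than in A, by log2 0.24 (adjusted p = 0.0229) and 0.58 (adjusted p = 0.0235). Pml, the scaffold of nuclear bodies, and Ptp4a3, a phosphatase, were lower by log2 -0.19 (adjusted p = 0.0345) and -0.27 (adjusted p = 0.037). These 4 calls were not steady, and each was lost on leaving out any 1 of several animals. Leaving out each animal in turn, they were lost in at least 1 fit, with limma adjusted p reaching 0.0621 for Ccng1 (without C4), 0.0646 for Gdf15 (without A5), 0.0959 for Pml (without A5) and 0.101 for Ptp4a3 (without C4), and Gdf15 and Pml were also lost without tumours A11 and C21 (adjusted p = 0.128 and 0.0967). The other 11 calls for C over A held in all of these fits.

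Between C and B, 9 of the 34 genes were called (26.5%), beside 17% of all genes. Of the 34, 3 were higher in C (8.82%, against 8.71% of all genes), namely Tnfrsf10b, Cdkn1a and Aen, and 6 were lower (17.6%, against 8.26% of all genes), namely Dcxr, Bbc3, Sesn1, Ercc5, Trp53inp1 and Abhd4. The median log2 fold change of the 34 was -0.04, beside -0.01 for all genes. Tumours of C and B did not overlap in 3 of the 34 genes, Cdkn1a, Dcxr and Bbc3, against 2.59% of all genes. Abhd4, a lipid hydrolase, had medians of 1864 in C and 2116 in B (log2 -0.19, SE 0.06, limma adjusted p = 0.036), and this call was lost on leaving out any of 7 animals (B1, B2, B3, B4, C1, C2 or C3; adjusted p up to 0.0829). The comparison shares its C tumours with that of C and A, and its B tumours with that of B and A.

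Between B and A, 5 of the 34 genes were called (14.7%), beside 15.3% of all genes. All 5 were higher in B (14.7%, against 6.49% of all genes), and 0 were lower (8.78% of all genes). An unadjusted limma p under 0.05 in either direction was found for 9 of the 34, beside 4801 of all 14539 genes. The edgeR count test called 6 of the 34, beside 21.2% of all genes. The 5 called by limma were Sesn2, Cdkn1a, Abhd4, Epha2 and Zmat3, with log2 fold changes of 0.66, 0.38, 0.20, 0.32 and 0.27. No gene of the 34 separated the tumours of B and A without overlap, against 0.234% of all genes. The median log2 fold change of the 34 was 0.06, beside 0.00 for all genes. These calls were not steady, since none of the 5 was left in the fits without animal A1, A2, A5 or B3, and 1 to 4 were left without A4, B1, B2, B4, C1 or C2. Without A5, the 5 limma adjusted p were between 0.054 and 0.11.

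**Figure D2:**
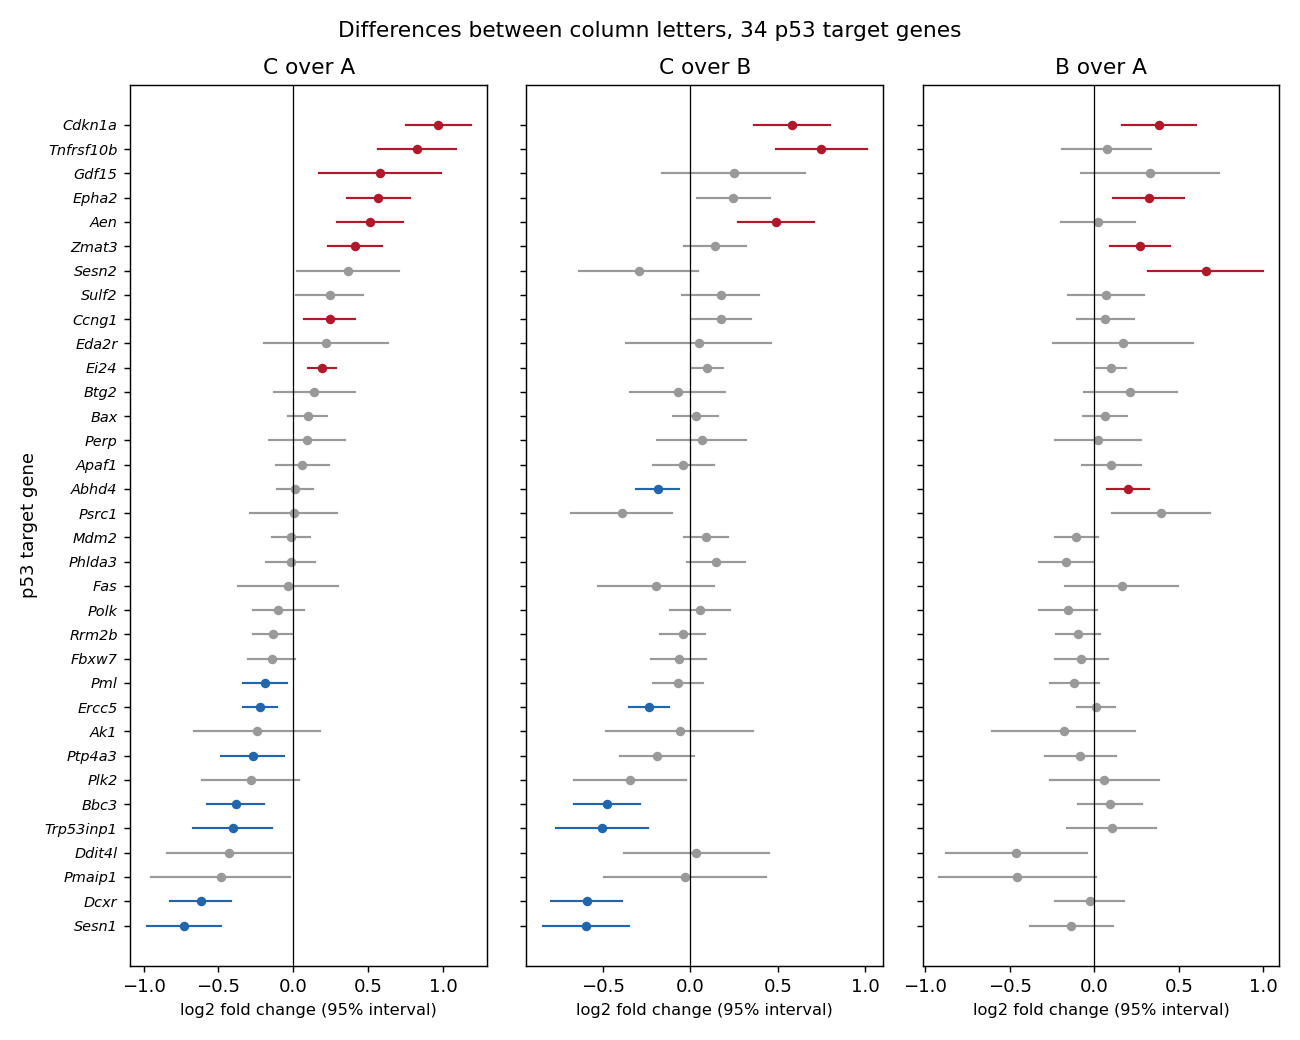
Log2 fold change (horizontal axis) with its 95% interval for each of the 34 p53 target genes, in C over A, C over B and B over A (limma, 5 animals per letter). Red marks genes called higher, blue genes called lower and grey genes not called; the C over A panel runs from Sesn1 at -0.73 to Cdkn1a at 0.97 and is split about evenly around 0.

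Of the 34 genes, 17 passed the test in none of the 3 comparisons (the share over all genes was not counted). Besides Mdm2, Bax, Apaf1, Fas, Perp, Pmaip1 and Eda2r, they were Phlda3, Plk2, Btg2, Polk, Rrm2b, Psrc1, Sulf2, Ak1, Ddit4l and Fbxw7. The nearest to the threshold was Psrc1, which encodes a microtubule-binding protein. It had 109 to 195.0 normalised reads in C (median 160.5), 141 to 288 in B (median 197) and 119 to 209 in A (median 149), with log2 fold changes of -0.39 for C over B (SE 0.14, limma adjusted p = 0.0596) and 0.40 for B over A (SE 0.14, adjusted p = 0.0601). Sulf2, which trims heparan sulphate, had medians of 1171 in C, 977 in B and 953 in A (log2 0.24 for C over A, adjusted p = 0.0719). Polk, a polymerase that copies past damaged bases, had 301 to 406 in C, 309 to 421 in B and 323 to 505 in A. Fbxw7, which selects growth regulators for degradation, had 472 to 619 in C, 462 to 711 in B and 506 to 633 in A. For Fas, another death receptor, the 3 letters overlapped widely, with 380.4 to 765 in C, 433 to 867 in B and 479 to 726 in A. Perp, a membrane protein of cell junctions and apoptosis, had 1199 to 2000.3 in C, 1219.7 to 1797 in B and 1181 to 2296 in A. Eda2r, a receptor of the TNF family, rested on few reads, at 27.0 to 55.2 in C, 25.6 to 46.1 in B and 19.2 to 62.7 in A.

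The index sequences in the column names follow the letters closely. In sorted order the names run through the 12 indices again and again, so that all tumours of A fall in a first run with B1, those of B2 to B5 share a run with C1 and C2, and C3 to C5 form a last run. The labels do not call these runs a batch. No tumour of A shared a run with one of C, so the run and the letter cannot be told apart in that comparison. With the run as a covariate, an alternative added after seeing the data, 4 of the 15 calls for C over A remained (Tnfrsf10b, Sesn1, Trp53inp1 and Epha2). Cdkn1a then had a log2 fold change of 0.57 (limma adjusted p = 0.11). For B over A, 0 of the 5 calls remained, and for C over B 8 of the 9 remained, all but Abhd4. B1 is the only animal of B in the run of A, so B over A then rested on that single animal of B. C over A was reached only through B1 and through the run that B and C share. This fit therefore cannot separate the run from the letter for those comparisons.

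C and B could also be set side by side within the run they share, with 4 tumours of C from 2 animals and 8 of B from 4 animals. These 4 genes were chosen after their values were seen, and the values are a description. There Cdkn1a had 4676 to 5259 normalised reads in C and 2965 to 3977 in B, Tnfrsf10b had 341 to 451 in C and 157 to 259 in B, Sesn1 had 271 to 465 in C and 477 to 824 in B, and Dcxr had 2382 to 3378 in C and 3400.3 to 4906 in B. Cdkn1a and Dcxr do not overlap between C and B over all tumours, so they could not overlap within the run.

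Mdm2, the ubiquitin ligase that degrades p53 and is itself a target of it, varied little. It had 1234 to 1508 normalised reads in C (median 1349.5), 1145 to 1441 in B (median 1253) and 1178 to 1653 in A (median 1327). The 3 letters overlapped, and the fold change of C over A was 0.99 (95% interval 0.907 to 1.08, limma adjusted p = 0.856). Mdm4, its partner in restraining p53, had medians of 114 in C, 134 in B and 103 in A and was not called in any comparison. The p53 gene itself, Trp53, had 481 to 702 in C (median 521), 388 to 731 in B (median 430.2) and 370 to 472 in A (median 419). C was above A in every tumour (log2 0.36, SE 0.10, adjusted p = 0.00771), and C over B did not pass (log2 0.25, SE 0.10, adjusted p = 0.084). Tumour B10, the highest in B at 731, also had the highest Krt18, an epithelial keratin, of all tumours (17634).

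Other pathway genes were counted from 2 lists made from textbook knowledge. Of 14 regulators, including Trp53 and Mdm4, 3 were higher in C than in A (Trp53, the p53-directed deubiquitinase Usp7 and the phosphatase Ppm1d) and 3 were lower (the damage kinase Atr, the acetyltransferase Kat5 and the p53 relative Trp73), beside 21.9% of all genes higher and 22.9% lower. Usp7 had 1898 to 2200.4 normalised reads in C, 1750 to 1992 in B and 1661 to 1796 in A (log2 0.28 for C over A, limma adjusted p = 0.000441). For C over B, 1 of the 14 was higher, Usp7 (log2 0.16, adjusted p = 0.0253), and 1 lower, Kat5 (log2 -0.20, adjusted p = 0.0356), beside 8.71% and 8.26% of all genes. For B over A, where 6.49% of all genes were higher and 8.78% lower, Ppm1d was higher (log2 0.26, adjusted p = 0.0453), and Trp73 (log2 -0.85, adjusted p = 0.0228) and Trp63 (log2 -1.91, adjusted p = 0.0441), both p53 relatives, were lower. Trp63 was low in most tumours, with medians of 14.6 in C, 11.9 in B and 29.0 in A. It ran from 2.77 to 135 in C, 3.74 to 21.1 in B and 12.0 to 311.5 in A.

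Of 16 other p53 targets, 15 were matched in the table. In C over A, 5 of them were higher (among them Dram1, Plk3, Rps27l and Trp53i11) and 5 lower (Cd82, Fdxr, Kitl, Tap1 and Xpc), beside 21.9% and 22.9% of all genes. Trp53i11 had 870 to 1315 normalised reads in C, 586 to 1263 in B and 575 to 753 in A (log2 0.64 for C over A, limma adjusted p = 0.000757). Xpc, the damage sensor of the repair pathway in which Ercc5 acts, had 641 to 818 in C, 815 to 967 in B and 845 to 966 in A (log2 -0.30 for C over A, adjusted p = 0.000755). In C over B, 2 of the 15 were higher (Rps27l and Trp53i11, beside 8.71% of all genes) and 1 lower (Xpc, beside 8.26%). In B over A, 1 was higher (Dram1, beside 6.49% of all genes) and 2 lower (Cd82 and Kitl, beside 8.78%).

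The spread of the p53 target genes within letters was shared between animals and between the tumours of an animal. The 2 tumours of 1 animal are called sister tumours here. For the 34 genes, a median of 45.3% of the log2 variance within letters lay between animals, beside 36.3% for all genes past the filter. The median SD between sister tumours was 0.14 on the log2 scale, and the median SD between animals of a letter was also 0.14.

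Btg2, an antiproliferative cofactor, was shared most within animals, with 86.2% of its variance between them. Animal B3 had 5583 and 5382 normalised reads and animal A3 had 4192 and 4201, where the other tumours lay at 4288 or below. Plk2, a stress-induced kinase (79.4% between animals), had 1835 and 1830 in animal B1, against 1458 or less elsewhere. Pmaip1 (77.4%) ran from 117 and 135 in animal B1 to 399 and 331 in animal A2. Aen followed at 74.2%.

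At the other end, the lowest shares were those of Ei24 (5.69%), Ercc5 (6.41%), Rrm2b (10.2%) and Bax (13.6%). Rrm2b encodes a subunit of ribonucleotide reductase for repair, and Bax the pore-forming effector of apoptosis. Like most of the 34 genes, they varied more between sister tumours than between animals. The part between animals was the larger in 13 of the 34 (38.2%), beside 29.3% of all genes past the filter. Ei24, Ercc5, Rrm2b and Bax are also genes of narrow range. Over all 30 tumours the highest value was 1.36 times the lowest for Bax, 1.37 for Rrm2b, 1.43 for Ei24 and 1.44 for Mdm2.

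**Figure D3:**
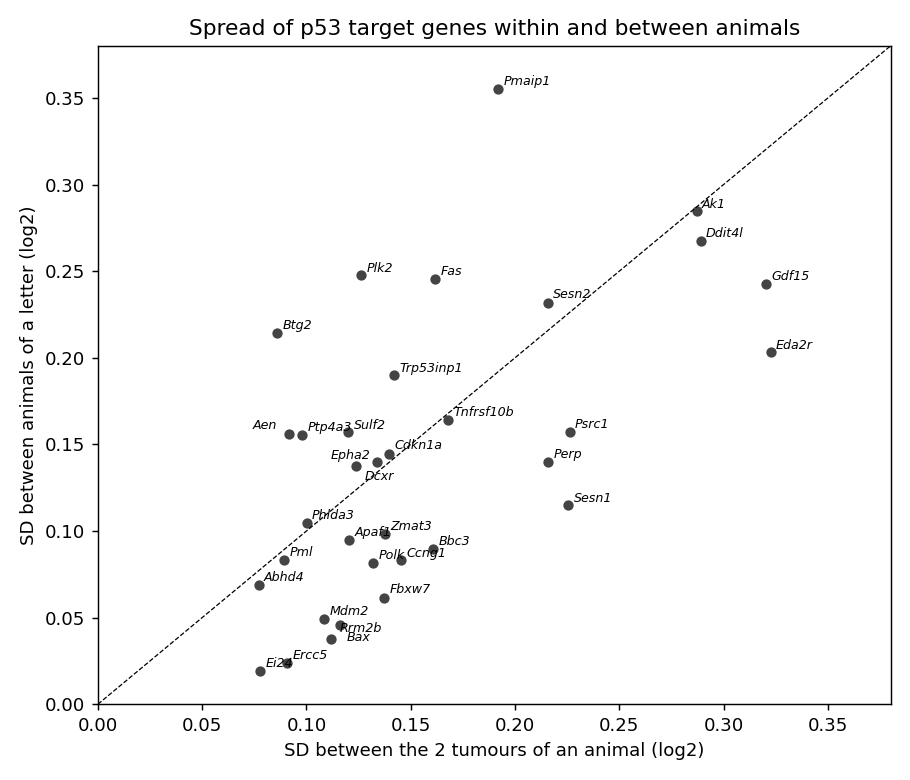
SD between animals of a letter (vertical axis) against SD between the 2 tumours of an animal (horizontal axis), both of log2(value + 1), for the 34 p53 target genes. The dashed line marks equal SDs. Pmaip1, Plk2, Fas and Btg2 lie above it, and Ei24 (between animals, 0.02) and Ercc5 lie below it near the origin. Eda2r (0.32 between sister tumours, 0.20 between animals) lies farther below it.

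The widest ranges of log2(value + 1) were those of Ddit4l, Pmaip1, Gdf15 and Sesn2, with Eda2r next. Ddit4l, a stress-induced inhibitor of mTORC1 signalling, ran over 3.82-fold, from 101 in tumour B30 to 385 in tumour C21, whose sister C20 had 181. Ak1, an adenylate kinase abundant in muscle, had 2295 in C21, 2369 in B10 and 2229 in A11, where its median over all tumours was 1104. Tumours A11 and C21 are those with the highest heart muscle Actc1, at 15068 and 2974, and B10 had 194; the part of heart muscle in these values was not tested. Gdf15 had 448 in tumour A10 and 159.8 in its sister A11. Tumour A11 was also the lowest of all 30 for Cdkn1a, Zmat3, Ei24, Bax, Sesn2, Btg2, Apaf1 and Abhd4. Outside the target genes it was the lowest for Trp53 and Sftpc too.

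**Figure D4:**
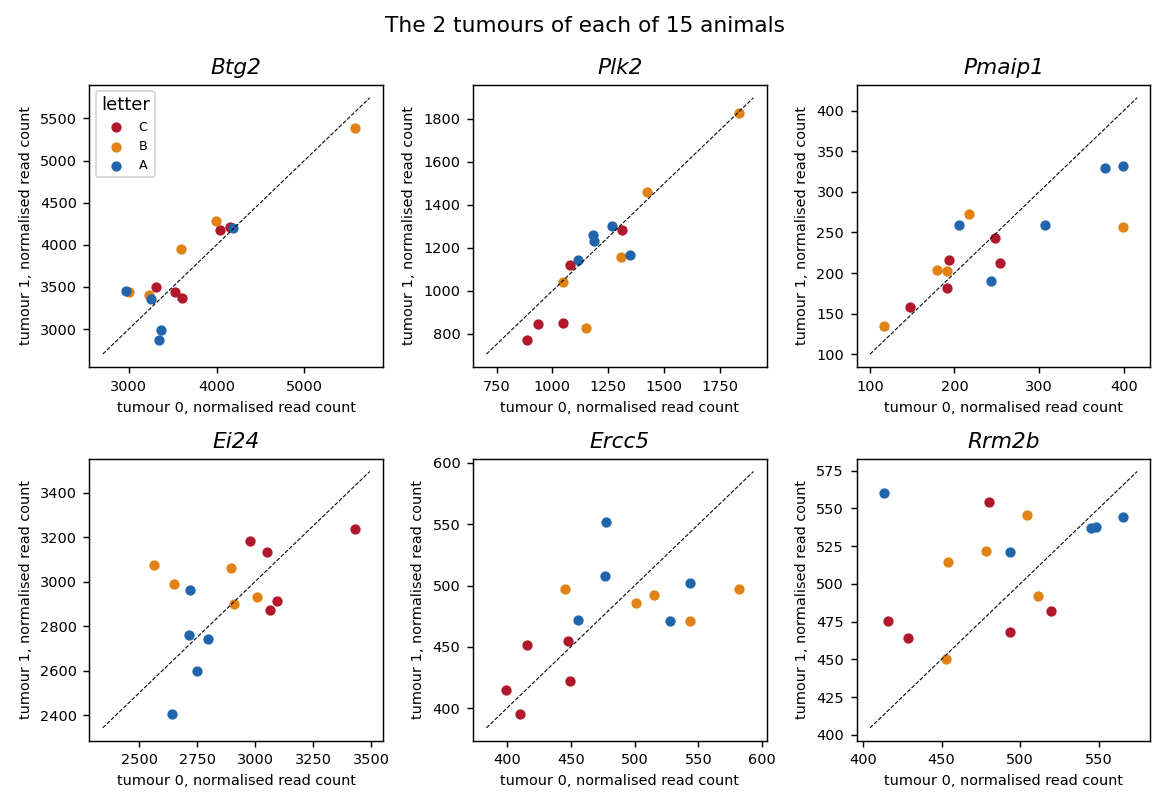
Normalised read count of tumour 1 (vertical axis) against tumour 0 (horizontal axis) of each of 15 animals, for 3 genes with a high share of variance between animals (Btg2, Plk2, Pmaip1) and 3 with a low share (Ei24, Ercc5, Rrm2b). Points near the dashed line of equality are animals whose sister tumours had like values, as for Btg2 in B3 (5583 and 5382).

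Since the letters separate several of these genes, co-variation was measured across the 15 animals after subtracting each letter's mean, with permutation within letters (100000 permutations, two-sided, Benjamini-Hochberg over 561 pairs). The median Pearson r of the 561 pairs was 0.01, and single pairs ran from -0.83 to 0.81. No pair passed an adjusted p under 0.05 by Pearson or by Spearman. An unadjusted Pearson permutation p under 0.05 was found for 63 pairs, and the lowest adjusted p was 0.101. Without the subtraction, where differences between the letters enter, the median Pearson r was -0.01. With permutation over all 15 animals, 59 pairs then passed, 26 of them positive and 33 negative.

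The pairs named here were picked from their values. Sesn1 and Ercc5 had the highest value (Pearson r = 0.81, permutation p = 0.00154, adjusted 0.151; Spearman rho = 0.83, permutation p = 0.00125, adjusted 0.222), and r was 0.73 without the 2 animals farthest from the median in Sesn1. Cdkn1a and Zmat3 had r = 0.66 (permutation p = 0.00594, adjusted 0.203) and rho = 0.74 (permutation p = 0.00225, adjusted 0.222), with r = 0.58 without the 2 farthest animals. Tnfrsf10b and Epha2, both cell surface receptors, had r = 0.76 (permutation p = 0.00018, adjusted 0.101) and rho = 0.71 (permutation p = 0.00237, adjusted 0.222), with r = 0.72 without 2 animals. Tnfrsf10b and Pmaip1, both of death pathways, had the lowest value, with r = -0.83 (permutation p = 0.00155, adjusted 0.151) and rho = -0.78 (permutation p = 0.00293, adjusted 0.235), and r = -0.68 without 2 animals. After the letter means were subtracted, none of these relations passed the adjustment.

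**Figure D5:**
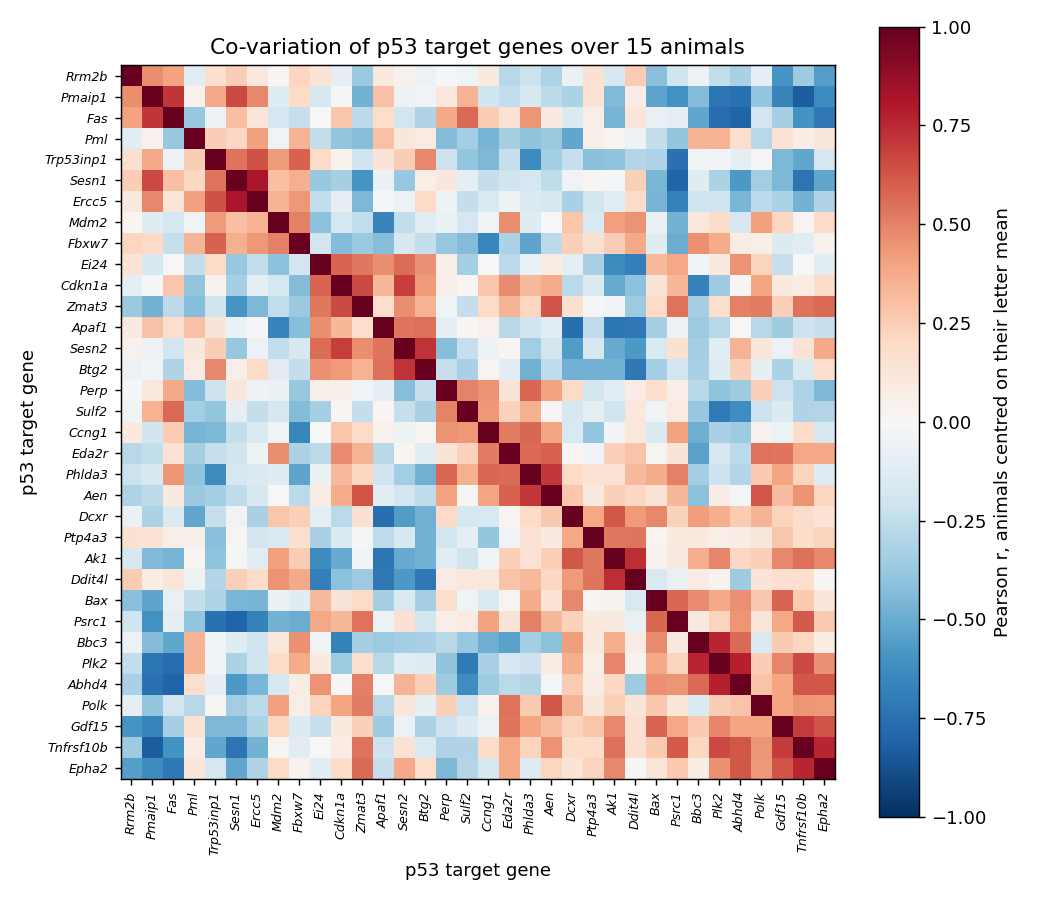
Pearson r (colour, from -1 to 1) between the 34 p53 target genes across 15 animals, after each letter's mean was subtracted from log2(value + 1); genes are ordered by clustering. Small red and blue patches, such as Sesn1 with Ercc5 (0.81) and Tnfrsf10b with Pmaip1 (-0.83), stand in a field near 0, with a median r of 0.01.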

How the data were processed

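Libraries were made from total RNA with an Illumina TruSeq kit, per the labels. TopHat 1.3.3, HTSeq, DESeq 1.14.0 and build mm9 are listed in the submitters' processing notes; strand use in counting is not given in the sources used here. The authors deposited 1 table of normalised signal for 30 tumours, in which every value is a whole multiple of its column's smallest value above 0 (100% of values, tolerance 0.01). That tolerance-based step gave the whole reads. No column name matched a sample, so columns were grouped by the letter in their names, and animals were read as letter plus first digit; both are readings of the names, not labels. The p-values measure the spread between these animals.

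Values were taken as log2(value + 1), averaged over an animal's 2 tumours and tested with limma 3.58.1 (R 4.3.3, empirical Bayes with trend, all 3 letters in 1 fit), keeping genes with a mean of at least 10. The members, lists and tests were chosen with earlier results of these data known. Genes were named if called, among the 5 lowest p of a comparison, or extreme in level, range, share between animals or pairwise correlation; further genes of a count were named after their values were seen, and 1 gene of a list is not reported here. Share between animals came from a nested variance estimate. Alternatives changed the pseudocount, filter, scaling, tumours and animals used. A count test (edgeR 4.0.16, quasi-likelihood) on recovered reads of 27 columns was added, since the step of the other 3 lay too near 1 to be checked. The limma comparison of C and A was checked on simulated data in which few genes changed and no index run acted. The other tests were not checked in this way.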

Additional observations from a re-analysis of the deposited data

Results flagged for a closer look

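In 6 of 102 groups of 5 animals (34 genes in 3 letters), 1 animal stood apart from the other 4 by Dixon's ratio (gap over range, critical value 0.71); chance flags about 1 in 20 groups. All levels are animal means of log2(value + 1). Bbc3 was high in animal B1, at 9.44 where the other animals of B lay between 8.92 and 9.00 (ratio 0.862); tumour B10 had 850.4 normalised reads and its sister 562. Aen was high in animal A1, at 8.50, against 8.197 to 8.26 in the others (ratio 0.779). Ak1 was high in the same animal, at 10.85, against 10.03 to 10.23 (ratio 0.76), where tumour A11 also had the highest Myh6 of all tumours (24675); the part of heart muscle in this was not tested. Btg2 was high in animal A3, at 12.04, against 11.60 to 11.69 (ratio 0.786), in both of its tumours. Psrc1, a microtubule protein, was high in A3 as well, at 7.56, against 7.09 to 7.21 (ratio 0.757). Phlda3, an inhibitor of AKT, was low in animal C5, at 10.19, against 10.41 to 10.50 (ratio 0.712).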

How the results depend on the processing

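Other pseudocounts, a mean of at least 100, upper quartile or median of ratios scaling and the animal as a random block kept every call for the named genes. The count of p53 target genes called for B over A moved from 5 to 3 with no filter, 3 with the replicate block (the animal's digit), 0 with the first tumour of each animal, 2 without tumours A11 and C21 and 1 with the index run as a covariate. The gene called with the index run was Bbc3, which was not among the 5. With the first tumour, 11 target genes were called for C over A (without Ccng1, Gdf15, Pml and Trp53inp1) and 7 for C over B (without Abhd4 and Trp53inp1), and over all genes 1055 for C over B and 0 for B over A, beside 2468 and 2219. With the second tumour, 13 of the 15 calls for C over A held (without Ccng1 and Ptp4a3) and Eda2r was added. For C over B, 8 of the 9 calls held (without Abhd4). All 5 calls for B over A held and Gdf15 was added. Over all genes, the second tumour gave 1722 calls for C over B and 2835 for B over A. With the index run, 4 target genes were called for C over A, and over all genes 774 for C over A (6510 without it), 1498 for C over B and 148 for B over A; Ptp4a3 turned to a log2 of 0.081 for C over A. Leaving out each animal, target genes called ranged over 11 to 16 (C over A), 8 to 11 (C over B) and 0 to 8 (B over A), and all genes over 5527 to 6710, 1506 to 2868 and 292 to 3433. The share of variance between animals ranged over 38.1% to 48.5%. The median correlation without subtracting the letter means ranged over -0.02 to 0.00. No label says that the animal's digit pairs animals; same-digit correlations ran from -0.22 to 0.51 and 6 of 15 animals matched best with their own digit in another letter, which shows pairing neither present nor absent. The edgeR count test kept 13 of 15 calls for C over A, losing Pml and Ptp4a3. Causes were not tested.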
